A study of Rattus norvegicus with 9 samples.

Results

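The Bdnf window was taken as chr3:100680000-100900000 in the rat genome rn6, and it held 20 of the 186719 accessible regions measured by ATAC-seq in dorsal root ganglia (DRGs). The paper kept only reproducible regions for its analysis, and no such filter was applied here. A listed region may therefore rest on a call in 1 library. The regions were chosen by position alone, as those lying wholly inside this window, and are numbered 1 to 20 from its left end. ATAC-seq inserts adaptors into open chromatin with the Tn5 transposase, so the reads over a region measure how accessible it was. All animals were adult female Sprague-Dawley rats, with an age given as 8 to 10 weeks in one passage and 12 to 16 weeks in another. The CCI group was 2 rats whose sciatic nerve was loosely tied (chronic constriction injury) and whose ganglia on that side, L4 to L6, were taken 14 days later. The naive group was 3 rats that had no operation, so CCI and the surgery around it cannot be told apart here. Each ATAC-seq library came from 1 rat. The group sizes used here are those of the sample labels. The paper's own passages differ on them, with 3 CCI and 2 naive, 3 of each, or 2 CCI and 3 naive. For H3K4me1, ChIP-seq was run on 4 pools of 3 rats (2 pools per group), and what is held is 1 merged list of regions with no value per sample. Whole ganglia hold neurons, satellite glia, Schwann cells and other cells, and in such bulk samples a change in the cells present and a change in accessibility per cell cannot be told apart. The tissue label was not checked against marker genes and the regions were not assigned to genes, since no annotation of rn6 was used here.

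Bdnf encodes brain-derived neurotrophic factor, a secreted neurotrophin that signals through the TrkB receptor (Ntrk2) and supports the survival and synaptic plasticity of neurons. Sensory neurons of the ganglia make BDNF and carry it to the dorsal horn of the spinal cord, where it modulates pain transmission. The gene has several promoters, each with its own untranslated first exon joined to a shared coding exon, so that different stimuli can act through different starts. H3K4me1 is a histone mark found at enhancers, both active and primed, and around many promoters.

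RefSeq places 6 Bdnf starts on the plus strand of GRCr8, a later rat assembly than rn6. They lay in 2 groups, with starts 2 and 3 at 1202 and 2338 bases after the first and starts 4, 5 and 6 at 18225, 20169 and 20225 bases after it. The 250 bases before start 1 (chr3:116619383-116619632) and before start 4 (chr3:116637608-116637857) are shown, 1 from each group, with the letters TCACGTCA in capitals.
Bdnf start 1: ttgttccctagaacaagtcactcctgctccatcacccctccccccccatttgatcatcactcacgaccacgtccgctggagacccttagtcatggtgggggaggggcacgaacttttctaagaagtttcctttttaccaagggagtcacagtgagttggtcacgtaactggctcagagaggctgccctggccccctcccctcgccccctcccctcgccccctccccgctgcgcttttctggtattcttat
Bdnf start 4: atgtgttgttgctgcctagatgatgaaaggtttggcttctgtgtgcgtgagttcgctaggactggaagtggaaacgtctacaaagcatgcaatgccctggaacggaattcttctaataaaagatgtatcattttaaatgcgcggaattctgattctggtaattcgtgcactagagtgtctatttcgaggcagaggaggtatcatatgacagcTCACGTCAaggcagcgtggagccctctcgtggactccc
TCACGTCA, searched on both strands (reverse TGACGTGA) after the sequences had been seen, occurred once, 38 bases upstream of start 4, and in 0.400% of the 33469 rat promoter windows of 300 bases. It resembles the cAMP-response element TGACGTCA, which was in 0 of the 6 Bdnf windows and 1.83% of all windows. The AP-1 letters TGAGTCA (reverse TGACTCA) were in 0 of 6 and 4.63%. The E-box CACGTG was in 1 of 6, 20 bases downstream of start 2, and in 6.42%. TCACGTCA, TGACGTCA and CACGTG share the core ACGT, and no motif searched lies whole inside another. A match describes letters and not a bound site, and because GRCr8 and rn6 positions were not lined up, no accessible region below is assigned to a start. In RefSeq's order for GRCr8 the neighbours before Bdnf are Kcna4, Mettl15 and Kif18a, and those after it are Lin7c, Lgr4, Ccdc34 and Bbox1.

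Accessibility is given as normalized reads, the read count of a region after division by the library's size factor (1 for the smallest library, naive rat 2, and up to 3.06 for naive rat 1). Between 4633807 and 13248437 reads per library fell in accessible regions. Pearson's r between libraries, on log2(normalized reads + 1) over all regions, was 0.783 to 0.851, and the regions are not independent replicates. In the Bdnf window the 5 libraries held 225 to 660 reads each. Counting error alone is therefore large for most of these regions, and it is smallest for naive rat 1.

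Most of the window's regions were weakly accessible, and the strongest lay close together near its middle. The 20 regions were 150 to 435 bp long and covered 4765 bp, and their median length of 241 bp was close to that of the flanking regions (238 bp) and of all regions (245 bp). Their mean over the 5 rats ran from 4.0 to 25.7 normalized reads with a median of 8.06, and 14 of 20 fell below the median level of all regions. Their density, 9.09 regions per 100 kb, lay between those of the flanking 1 Mb on the left (6.20) and on the right (9.60).

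The 3 strongest regions were region 11 (chr3:100787863-100788297), region 9 (chr3:100771321-100771673) and region 10 (chr3:100771929-100772219). Region 11 was also the longest, at 435 bp, and stood at the 82.7th percentile of all regions by mean normalized reads. Region 9 lay at the 81.8th and region 10 at the 74.5th percentile. Regions 9 and 10 were separated by 255 bp, and region 11 was separated by 246 bp from region 12, which was followed after 445 bp by region 13. These 5 regions held 38.0% to 53.9% of the window's normalized reads in each rat. Per kb of length the order changed, with region 9 highest at 68.9 normalized reads per kb, then region 10 at 60.3 and region 11 at 59.1, and their spread between rats was larger than these steps.

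Outside the middle, region 16 (chr3:100817479-100817800) was the strongest at 15.5 ± 4.21 normalized reads (SD, n = 5). It lay 29.6 kb to the right of region 11 and 4562 bp from the nearest H3K4me1 region. The weakest was region 7, at 4.0 normalized reads, the 1.57th percentile of all regions. The largest gap without an accessible region was 29148 bp, between regions 16 and 17.

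**Figure D1:**
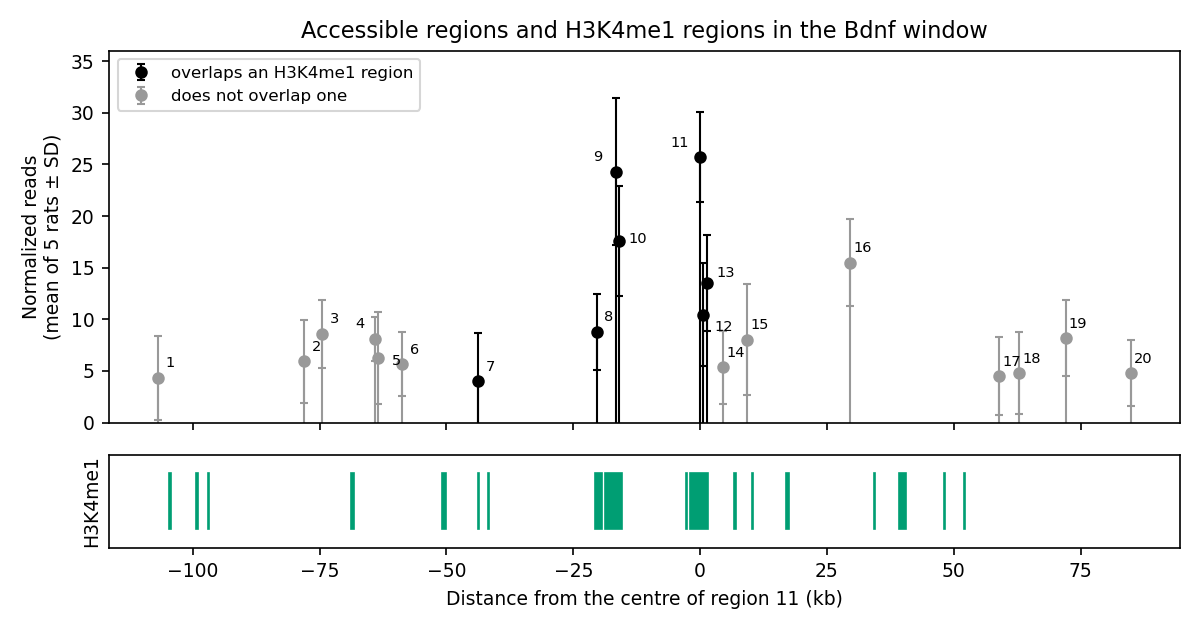
The upper panel plots the mean normalized reads of each of the 20 regions of the Bdnf window over 5 rats, with bars of 1 SD, against distance in kb from the centre of region 11, and the lower panel draws the 18 H3K4me1 regions to scale. Regions 9, 10 and 11 stand highest and lie in the longest H3K4me1 regions, while region 16 (15.5) is the strongest of the 13 regions outside H3K4me1.

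H3K4me1 covered 6.55% of the window, in 18 regions with a median length of 310 bp against 621 bp over all H3K4me1 regions. Accessible regions 7 to 13 overlapped it by at least 1 bp. That is 7 of 20 (35.0%), beside 11.3% of 62 regions in the left flank, 22.9% of 96 in the right flank and 31.3% of all regions. Regions 8 to 13 were covered in full, and region 7 over 61.3% of its length.

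The overlaps fell in 4 H3K4me1 regions. One of 3528 bp (chr3:100786159-100789686), at the 97.7th percentile of H3K4me1 lengths, held regions 11, 12 and 13. Another of 3364 bp (chr3:100769365-100772728), at the 97.4th percentile, held regions 9 and 10, and its neighbour of 1512 bp (chr3:100767310-100768821) held region 8. The accessible regions of these 3 long domains are the middle group described above together with region 8. Region 7 lay in an H3K4me1 region of 282 bp, so 6 regions remained when H3K4me1 regions under 1 kb were left out.

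The other 14 H3K4me1 regions held no accessible region. They were 201 to 1276 bp long, and 13 of them were under 1 kb. The 13 accessible regions outside H3K4me1 lay 883 to 32690 bp from the nearest one, with a median of 5574 bp.

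Regions that overlapped H3K4me1 were more accessible than the others in the window. Their median was 13.5 normalized reads (range 4.0 to 25.7) against 5.92 (4.36 to 15.5), or 53.2 against 30.4 per kb. The ratio of the medians was 4.0 and 3.27 in CCI rats 1 and 2, against 1.53, 2.14 and 2.28 for naive rats 1, 2 and 3. It was above 1 in every rat and higher in both CCI rats than in all naive rats, a difference for which an exact permutation test of 2 against 3 rats can give no p below 0.2. This ratio was not a planned comparison, and it rests on medians of 7 and 13 regions. Over all regions the same ratio was 2.50 and 2.15 after CCI, against 2.11, 2.86 and 2.42 for the naive rats, and here the groups overlapped. Taken per kb, the ratio in the window was 2.83 and 2.32 after CCI, against 1.15, 2.15 and 1.85 for the naive rats. The regions in H3K4me1 held 57.6% and 55.5% of the window's normalized reads in CCI rats 1 and 2. The naive rats had 46.2%, 56.4% and 53.3%, so by this share the groups overlapped. Naive rat 1, which had the lowest ratio in the window and over all regions, was also the most deeply sequenced, and the part of depth in this was not tested.

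The highest and the lowest rat differed by a factor of at least 1.55 in every region. Naive rat 3 was the lowest of the 5 rats in 10 of the 20 regions. Naive rat 1 was the highest in 8 regions and naive rat 2 in 7, so the extremes were mostly naive rats, which were 3 of the 5 rats. The highest rat exceeded the lowest by a median factor of 2.29 in the 7 regions with H3K4me1 and of 5.92 in the 13 without. In 8 of the 20 regions at least 1 library had 3 reads or fewer, so large ratios there rest on few reads. A region called in 1 library alone would be listed where that library was high, and the part of this in the extremes was not tested. The lowest value over all regions was 1 read in every library, so a value of 1 may be a floor that stands for fewer.

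**Figure D2:**
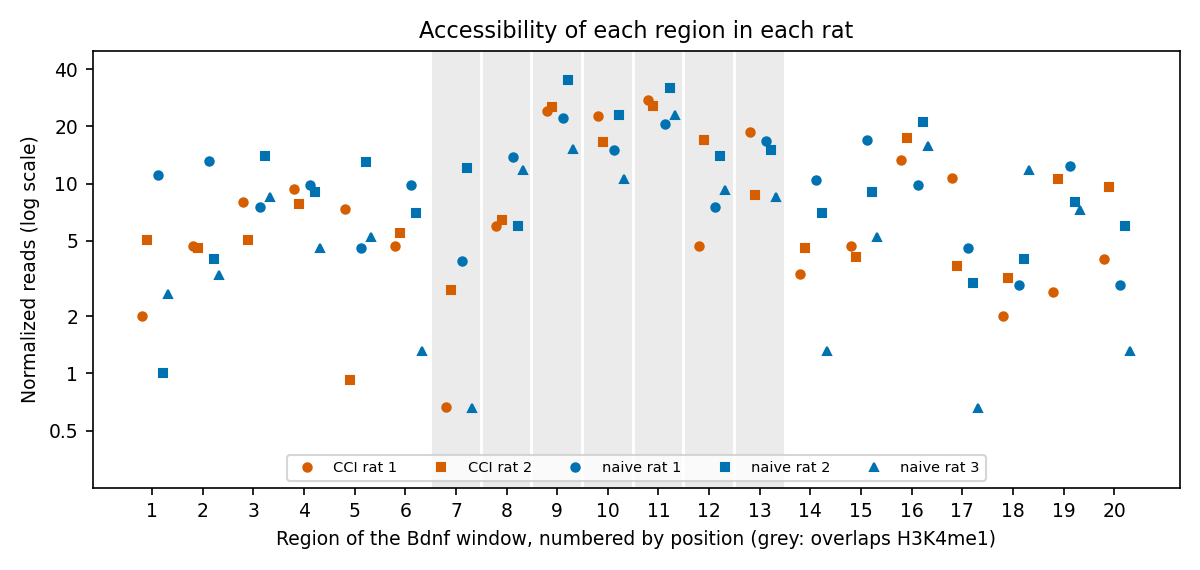
Normalized reads on a log scale are plotted for each of the 20 regions in each of 5 rats, CCI in orange and naive in blue, with grey bands on regions 7 to 13, which overlap H3K4me1. The orange and blue points intermix in 19 of the 20 regions, and in region 15 both CCI rats (4.67 and 4.12) lie below the 3 naive rats.

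Region 11, the strongest, had 27.4 and 25.6 normalized reads in CCI rats 1 and 2, while naive rats 1, 2 and 3 had 20.6, 32.0 and 23.0. Both CCI rats lay inside the naive range. The CCI mean was 26.5 ± 1.22 (SD, n = 2) and the naive mean 25.2 ± 6.02 (SD, n = 3). On the log2(normalized reads + 1) scale the fold change, CCI minus naive, was 0.09 (SE 0.33, 95% confidence interval -0.55 to 0.73), with an adjusted p of 0.930 by limma. With each rat left out in turn it ran from -0.03 (without naive rat 1) to 0.27 (without naive rat 2). With 32 to 63 reads per library, counting error alone was 12.6% to 17.7% of a value.

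Region 9 had 24.0 and 25.2 normalized reads in CCI rats 1 and 2, and the values of naive rats 1, 2 and 3 were 22.2, 35.0 and 15.1. The naive rats lay on both sides of the CCI rats, and naive rats 2 and 3 were the highest and the lowest of the 5. Its log2 fold change was 0.11 (SE 0.34, 95% confidence interval -0.55 to 0.76), with an adjusted p of 0.923 by limma. With each rat left out in turn it ran from -0.18 (without naive rat 3) to 0.40 (without naive rat 2).

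Region 10, next to it, had 22.7 and 16.5 normalized reads after CCI, and naive rats 1, 2 and 3 had 15.0, 23.0 and 10.5. Again naive rat 2 was highest and naive rat 3 lowest. This gave a log2 fold change of 0.31 (SE 0.38, 95% confidence interval -0.44 to 1.06), with an adjusted p of 0.773 by limma. It ran from 0.05 without naive rat 3 and 0.09 without CCI rat 1 to 0.53 without CCI rat 2 and 0.58 without naive rat 2. For these 3 strongest regions the intervals together span -0.55 to 1.06. They rest on the spread between rats that limma shares over all regions of a similar level. The spread of the rats in a region itself had almost no weight in them.

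The largest fold changes in the window were in weak regions. Region 17 (chr3:100846949-100847098) had 16 and 8 reads in CCI rats 1 and 2, which are 10.7 and 3.66 normalized reads. Naive rats 1, 2 and 3 had 14, 3 and 1 reads, or 4.57, 3 and 0.66 normalized reads. The 1 read of naive rat 3 is the lowest value that library has in any region, and it may stand for fewer. CCI rat 1 was the highest and CCI rat 2 lay below naive rat 1, so the groups overlapped. A log2 fold change of 1.15 (SE 0.97, 95% confidence interval -0.76 to 3.05, adjusted p = 0.660 by limma) was found, and it was 0.48 without CCI rat 1, 0.64 without naive rat 3, 1.52 without naive rat 1 and 1.81 without CCI rat 2.

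Region 5 (chr3:100724415-100724564) had the largest negative fold change. Its normalized reads were 7.34 and 0.92 in CCI rats 1 and 2, against 4.57, 13 and 5.26 for naive rats 1, 2 and 3. CCI rat 2 had 2 reads there and was the lowest, while CCI rat 1 lay within the naive range. With all rats it was -0.98 (SE 0.76, 95% confidence interval -2.47 to 0.52, adjusted p = 0.632 by limma), and without CCI rat 2 it was 0.08. Leaving out other rats moved it to -2.04 without CCI rat 1 and -0.56 without naive rat 2.

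Region 15 (chr3:100797221-100797483), singled out after its values were seen, was the only one whose groups did not overlap. It had 4.67 and 4.12 normalized reads in CCI rats 1 and 2, against 17.0, 9 and 5.26 for naive rats 1, 2 and 3. The CCI values were the lowest of the 5, with naive rat 3 close above them and naive rat 1 far above. Its fold change was -0.95 on the log2 scale (SE 0.61), with an adjusted p of 0.558 by limma, the lowest in the window. Leaving out 1 rat at a time, the fold change ran from -1.32 (without naive rat 3) to -0.55 (without naive rat 1). Non-overlap was seen in 1 of 20 regions (5.0%), against 29.2% of all 186719 regions.

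In the whole window, no region passed the test of CCI against naive. With limma's moderated test fitted over all regions and a two-sided unadjusted p below 0.01, which is what called means here, 0 of 20 regions were called, against 3.59% of all regions. At an unadjusted p below 0.05 the limma count was again 0 of 20, against 11.1%, and at an adjusted p below 0.05 it was 0, against 0.344%. edgeR on the recovered reads called 0 of 20 with the estimated size factors (3.89% of all regions) and 0 with TMM factors (3.9%). DESeq2 with the estimated factors called 0 (1.4%). At p below 0.05, edgeR gave 1 of 20 with either set of factors, region 15, against 11.8% and 11.4% of all regions. Fitted with H3K4me1 regions alone, 0 of the 7 regions were called by limma, against 5.25%. Read against these shares of all regions, a count of 0 among 20 is no finding about the window.

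The 95% confidence intervals of all 20 regions included 0. Fold changes on the log2 scale were above 0 in 8 regions and below 0 in 12, with a median of -0.09 over a range of -0.98 to 1.15. With median-of-ratios scaling, which lowers the median of all regions by 0.10, the split was 4 above and 16 below. In edgeR, TMM factors in place of the estimated size factors lowered the median of all regions by 0.10. The median of the 7 regions with H3K4me1 was -0.01 and that of the 13 without was -0.25. The median of the window was above 0 without CCI rat 1 (0.05), naive rat 1 (0.03) or naive rat 2 (0.01), and -0.30 without naive rat 3, so its sign rests on single rats.

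**Figure D3:**
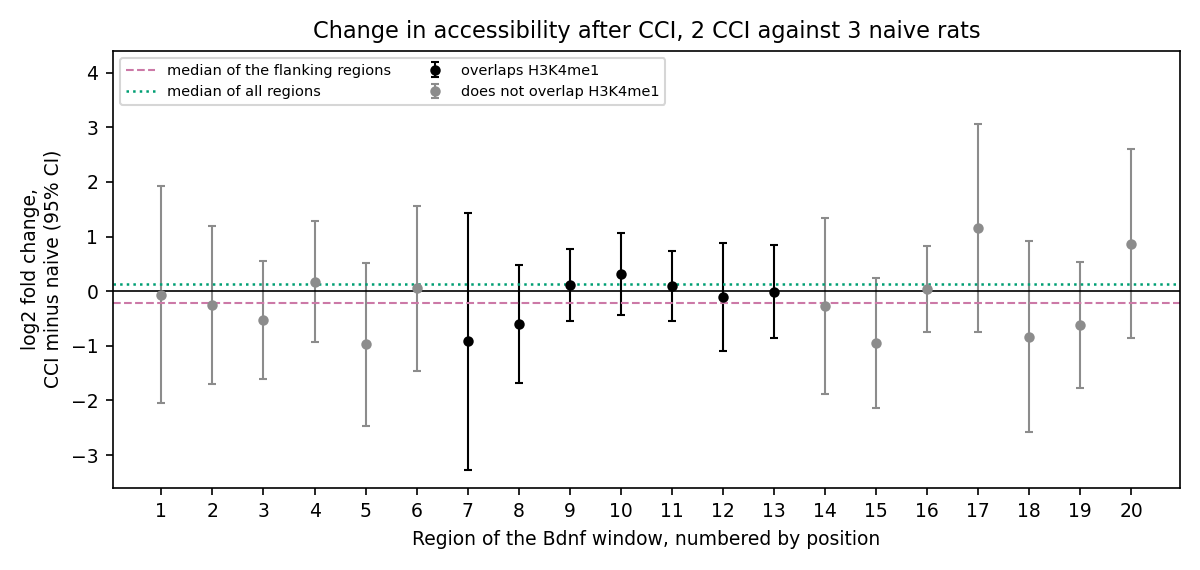
The log2 fold change of each of the 20 regions, CCI minus naive (2 against 3 rats), is plotted with its 95% confidence interval, black for regions that overlap H3K4me1, beside dashed and dotted lines at the medians of the flanking regions (-0.23) and of all regions (0.13). Every interval crosses 0, and the narrowest belong to regions 9, 10 and 11.

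The flanking 1 Mb on each side held 158 accessible regions, 62 on the left and 96 on the right, with a median of 9.13 normalized reads against 8.06 in the window. Their median log2 fold change was -0.23, against -0.09 in the window, 0.16 on chromosome 3 and 0.13 over all regions. The difference of window and flanks, 0.14, was -0.17 without naive rat 3 and 0.25, 0.08, 0.19 and 0.34 without each other rat. It was 0.35 against the flanking regions in H3K4me1 alone, whose median was -0.44. It was 0.07 against the left flank and 0.22 against the right. Against both flanks it was 0.22 for the 7 regions with H3K4me1 and -0.03 for the 13 without. The splits by side and of the window's own regions were chosen after seeing the data.

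Called regions lay in the flanks and not in the window. In the flanks 12 of 158 regions (7.59%) were called by limma, 1 on the left and 11 on the right, all of them lower after CCI, a direction in which 1.46% of all regions were called. Whether called or not, 34.2% of the 158 flanking regions had groups that did not overlap, 41 of them with both CCI values lower, beside the 29.2% of all regions. The nearest called region lay 128 kb beyond the right edge. Of the 12 called regions 8 had a higher mean than region 11, so the depth behind them was mostly better than in the window.

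The lowest p on the right was at chr3:101074879-101075500, which had 18.0 and 30.2 normalized reads after CCI, against 56.9, 59.0 and 46.7 for naive rats 1, 2 and 3. Its log2 fold change was -1.17 (SE 0.29), with an adjusted p of 0.0272 by limma, the only one below 0.05 in the flanks. On the left, chr3:100365884-100366724 had 116 and 103 normalized reads after CCI, against 194, 209 and 207 for the naive rats. Its log2 fold change was -0.89 (SE 0.25), with an adjusted p of 0.0808 by limma.

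In steps of 200 kb, the left flank had medians of -0.27, -0.17, 0.17, 0.11 and -0.18 up to the window. After the window, the medians were -0.30, -0.08, -0.58, -0.49 and 0.05. The window's -0.09 lies inside the range of these steps, and the lowest medians, -0.58 and -0.49, were those of neighbouring steps on the right.

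**Figure D4:**
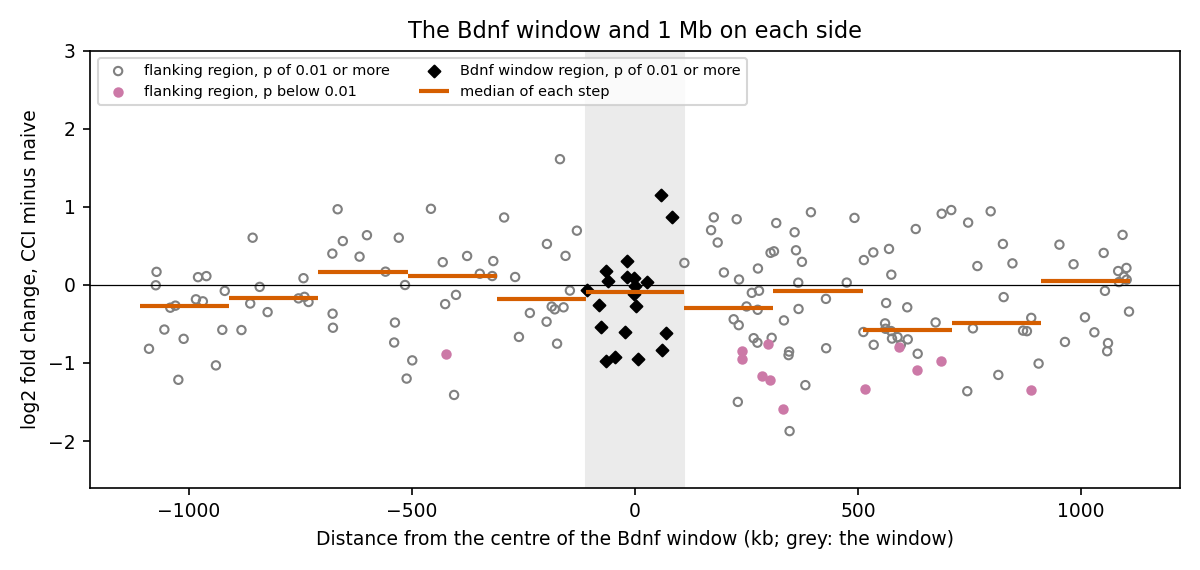
The log2 fold change of 178 regions, CCI minus naive, is plotted against distance in kb from the centre of the Bdnf window (grey), with filled circles for the 12 called flanking regions, diamonds for the 20 regions of the window and bars for the median of each step. The called regions are all below 0 and 11 of them lie to the right, while the diamonds spread on both sides of 0.

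For 1 value per rat, the reads of the window were divided by those of the flanks. The window held 6.59 and 7.46 reads per 100 flank reads in CCI rats 1 and 2, against 6.27, 7.13 and 4.55 for naive rats 1, 2 and 3. Naive rat 2 lay between the CCI rats, so the groups overlapped, and naive rat 3 was the lowest. The means were 7.03 ± 0.61 (SD, n = 2) and 5.98 ± 1.31 (SD, n = 3). The log2 ratio was 0.25 higher after CCI, with p = 0.4 in a two-sided exact permutation test over rats, which cannot give a p below 0.2 here. It was 0.07 without naive rat 3, 0.17 without CCI rat 2 and 0.39 without naive rat 2. With the 12 called flank regions left out of the divisor it was 0.11, and with the regions in H3K4me1 alone in the numerator it was 0.38, both chosen after seeing the data.

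To set each region against the flanks in the test itself, the median log2 value of the 158 flanking regions was subtracted in each library. This adds the same 0.04 to the log2 fold change of every region of the window. The 0.04 comes from the flank medians of the libraries, and differs from the flanking regions' median log2 fold change of -0.23. The test therefore does not take out that -0.23. Every other region of the genome was centred on its own neighbours in the same way, and limma was fitted again. Of the 20 regions 0 were called at p below 0.01, against 3.42% of all regions, and 0 at p below 0.05, against 9.67%. The lowest p by limma was 0.123 (adjusted p = 0.650), again for region 15. Relative to the flanks, the log2 fold changes of regions 9, 10 and 11 were 0.14 (SE 0.32), 0.35 (SE 0.37) and 0.13 (SE 0.31). Those of regions 17 and 5 were 1.19 (SE 0.80) and -0.94 (SE 0.70), and the median over the window was -0.05, beside -0.05 over all regions and -0.17 over the flanking regions, each of which was centred on its own neighbours.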

How the data were processed

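ATAC-seq libraries of 2 CCI and 3 naive rats and the merged H3K4me1 list were used. The authors aligned reads to rn6 with Bowtie2, kept a mapping quality of at least 10, removed duplicates, extended each Tn5 cut by 75 bases each way, called regions in each library with MACS2, merged them and counted the reads in each. The deposited signal is those read counts divided by a size factor per library, so for naive rat 2, whose factor is 1, the deposited values are counts. The factors were estimated here from the values themselves, by fitting for each library the normalized value of 1 read. With them, 100% of values lay within 0.005 normalized reads of a whole number of reads. The H3K4me1 regions were called by the authors with MACS2. CASAVA 1.8.2 is named in the submitters' processing notes, and other upstream versions are not given in the sources used here.

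CCI was compared with naive with limma 3.58.1 (R 4.3.3) on log2(normalized reads + 1) with a mean-variance trend, all 186719 regions in 1 fit, no covariates, two-sided p below 0.01, and Benjamini-Hochberg adjustment over all regions. The pseudocount understates the change of weak regions. For values relative to the flanks, each region was centred on the regions 110 kb to 1.11 Mb away (the chromosome's median where fewer than 20). Overlaps used bedtools 2.31.1 and a minimum of 1 bp. On the recovered reads, edgeR 4.0.16 (quasi-likelihood test) called 7256 regions and DESeq2 1.42.0 called 2612. Other alternatives are given in the closing section. Tests were tried on simulated data. Tables and figures used Python 3.11.15, pandas 2.3.3, numpy 2.4.6, scipy 1.17.1 and matplotlib 3.10.9.

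The replicates are separate rats, and intervals from reads cover counting error only. Regions given in full are the 3 with the most reads, any called, and the largest fold change each way, and in the flanks the lowest p on each side. The window, lists and tests were chosen with earlier results of these data known. Gene expression, neurotrophin genes elsewhere, cell type markers and rn6 sequence were not analysed here.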

Additional observations from a re-analysis of the deposited data

How the results depend on the processing

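The count of called Bdnf regions was 0 in all 17 alternatives run as deposited and all 14 relative to the flanks. No more than 1 region reached p below 0.05 under any of them, and the lowest adjusted p was 0.394, by edgeR with TMM factors. The median log2 fold change of the window ran from -0.44 (edgeR with TMM factors) to 0.05 (without CCI rat 1). Relative to the flanks it ran from -0.24 (replicate block, or without naive rat 3) to 0.22 (centred on flanking regions in H3K4me1 alone). The log2 ratio of window to flank reads, 0.25 as reported, was 0.16 with flanks of 2 Mb and 0.15 with reads per kb. It was 0.23 without region 11, 0.28 with flanks of 500 kb and 0.34 with flanking regions in H3K4me1 alone. Over all regions, 6703 were called in the reported fit, against 2612 with DESeq2, 3142 without a trend, 3944 with the replicate block, 3352 without CCI rat 1 and 3793 without naive rat 1. Among the strong regions, region 9 turned to -0.00235 with median-of-ratios scaling, -0.024 with edgeR and TMM factors and -0.18 with the replicate block (relative to the flanks -0.11), and region 11 to -0.015 with median-of-ratios scaling. With each rat left out in turn, region 9 ran from -0.18 to 0.40 (relative to the flanks -0.11 to 0.48), region 11 from -0.034 to 0.27 (-0.056 to 0.35), and region 5 from -2.04 to 0.083 (-1.98 to 0.11). Region 10 ran from 0.05 to 0.58, region 15 from -1.32 to -0.55 and region 17 from 0.48 to 1.81. In the same way the difference in median between window and flanks ran from -0.17 to 0.34, and with all rats it was 0.35 against flanking regions in H3K4me1 alone. The cause of these changes was not tested. A fit without 1 CCI rat assumes that the other varies as the naive rats do. Leaving out the weakest 25% of regions left 11 of 20 to test and gave no value for regions 5 and 17.

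The labels give replicate numbers without saying whether they pair the rats. The deviations of same-numbered rats from their group means correlated at r = -0.06 and -0.06. With 2 CCI rats the deviations of one mirror those of the other, so these values are not separate checks and cannot settle whether a pairing exists. With a replicate block, 0 regions were called, the median of the window was -0.30 and naive rat 3, which has no partner, dropped out of the estimate. In 8 of the 20 regions some library had 3 reads or fewer, and there depth limits the values.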

Other observations

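Some values of the window belong to no comparison above. The longest H3K4me1 region without an accessible region was chr3:100827302-100828577, at 1276 bp and the 82.9th percentile of H3K4me1 lengths, 39.2 kb to the right of the centre of region 11. Region 18 (chr3:100850830-100851052) was the only region in which naive rat 3 was the highest of the 5 rats, with 18 reads against 3 to 9 in the other libraries. In region 12 (chr3:100788544-100788791), which lies in the same H3K4me1 domain as region 11, the CCI rats were the lowest and the highest of the 5, at 4.67 and 16.9 normalized reads, with the naive rats between them. None of these was tested beyond the fit reported above.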
